A study of Mus musculus with 8 samples.

Results

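Amsacrine-treated splenocytes that carried the Δ122p53 allele were compared with amsacrine-treated wild-type (WT) splenocytes and, separately, with amsacrine-treated p53-null splenocytes. The comparison used 3 of the 8 arrays, 1 for each genotype, and 9253 of the 24613 probes, those with a detection p-value under 0.01 on at least 1 of the 3. All cells were C57BL/6 spleen cells from mice 5 to 6 weeks old, in suspensions pooled from 4 mice per genotype, and the treated cultures had 1 µg/mL amsacrine in a 30% ethanol carrier for 5 hours. p53-null cells (p53-/-) lack p53, and Δ122p53 cells make a p53 protein that lacks its N-terminal part. The remaining arrays were 1 WT control, 1 Δ122p53 control, 2 p53-null controls and 1 p53-null culture irradiated with 4 Gy of gamma rays, and they entered the fit as background. The labels describe a carrier control for the drug and untreated cells for irradiation, and do not say which kind each control was. Each group in the comparison is therefore 1 array of 1 pooled culture, with no replicate of its own.

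p53 is a transcription factor that DNA damage stabilises. It then raises genes that stop the cell cycle, repair DNA or kill the cell, and Mdm2, which in turn degrades p53. Amsacrine traps topoisomerase II on cut DNA and so makes double-strand breaks. The N-terminal part that Δ122p53 lacks holds the transactivation domain and the site that Mdm2 binds. The mouse spleen is made up mainly of B and T lymphocytes, holds macrophages that clear old red cells, and also makes red cells. Interferon-stimulated genes are the antiviral genes that type I interferon turns on.

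Against WT, 459 probes rose and 189 fell on the Δ122p53 array, and against p53-null 298 rose and 41 fell (limma, Benjamini-Hochberg adjusted p under 0.05 over 9253 probes). That is 4.96% and 2.04% of the probes against WT, and 3.22% and 0.443% against p53-null. By size alone, 1333 probes (14.4%) were at least 2-fold higher and 1168 (12.6%) at least 2-fold lower than WT, and 879 (9.50%) were higher and 825 (8.92%) lower than p53-null. Both differences use the same Δ122p53 array, so they are given side by side and not as 2 independent results. In the same fit the p53-null and WT amsacrine arrays differed at 0 probes (0%; limma, 594 at an unadjusted p under 0.05), with 725 (7.84%) at least 2-fold apart. The error of every difference came from the p53-null control pair, on which 636 probes (6.87%) were at least 2-fold apart. Whether that pair came from separate cultures, or held a carrier control and an untreated control, is not given. The p-values therefore measure a spread that may be technical or may include a carrier difference, which was not tested. The calls depended on the processing. In the authors' value table limma called 0 probes in either comparison (1983 and 1310 at an unadjusted p under 0.05, smallest adjusted p 0.0739 and 0.0677), and with every probe kept it also called 0 (3632 and 2688, smallest 0.118 and 0.136). Cyclic loess left 182 higher and 11 lower against WT and 137 and 4 against p53-null. Median centring in place of quantile scaling left 271 higher and 19 lower against WT and 225 and 5 against p53-null.

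One probe per gene, the brightest on average, gave 6787 named genes. Of these, 285 (4.20%) rose and 146 (2.15%) fell against WT, and 226 (3.33%) rose and 25 (0.368%) fell against p53-null. These shares are the background for each gene list below. Whatever the test, 41.2% of genes were higher than WT and 42.6% higher than p53-null, and the median difference over all genes was -0.17 against WT and -0.11 against p53-null (log2). Most member probes, 6837, were detected on all 3 amsacrine arrays. The Δ122p53 array alone detected 741, against 228 for the WT array alone and 253 for the p53-null array alone. In all, the Δ122p53 amsacrine array detected 8434 probes, the WT array 7710 and the p53-null array 7977. The lowest detected signal was 5.78 on the Δ122p53, 6.04 on the WT and 5.94 on the p53-null amsacrine array (log2). How far this affects the detection counts was not tested. A gene that entered only because it was bright on the Δ122p53 array had to differ, as had one that entered without being detected there, so the numbers of such genes are given with the lists. B cell and T cell markers were detected on every amsacrine array: 19, 19 and 18 of 19 B cell genes, and 21, 21 and 18 of 21 T cell genes, on the WT, p53-null and Δ122p53 arrays. Trp53 had no probe, so the genotype labels could not be checked on the targeted gene.

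**Figure D1:**
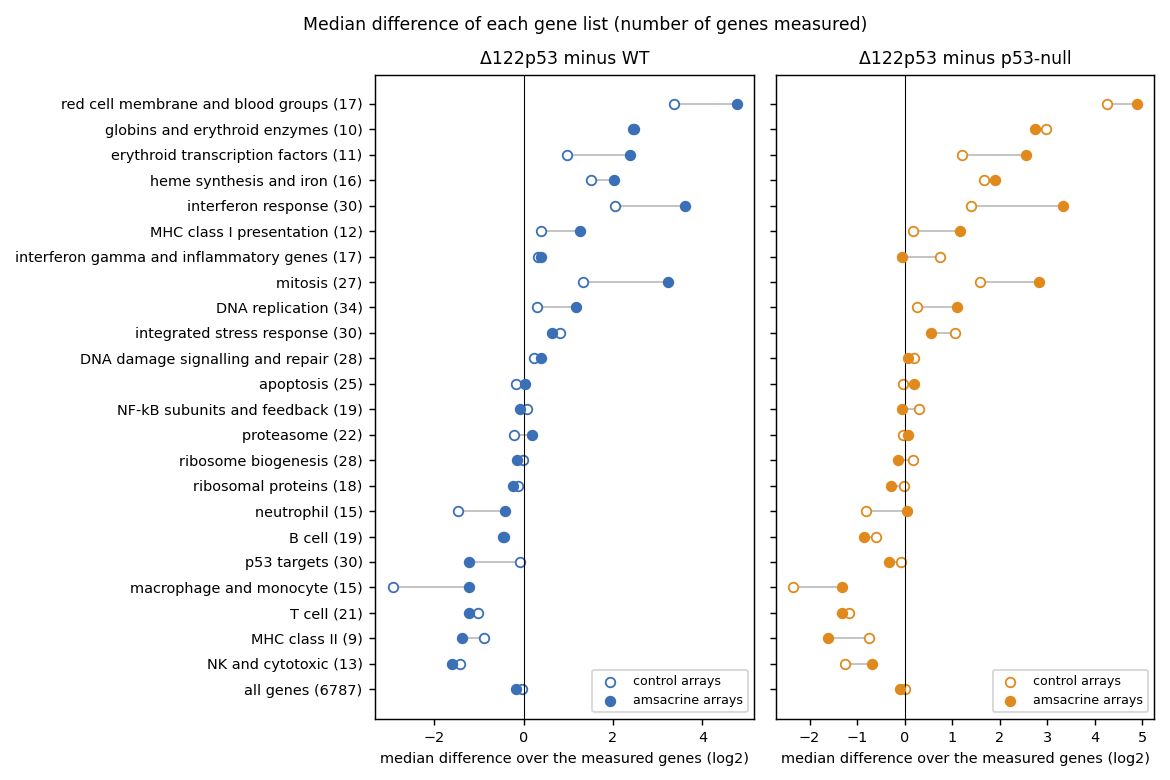
Median difference (log2) of each gene list on the amsacrine arrays (filled) and on the control arrays (hollow), Δ122p53 minus WT on the left and minus p53-null on the right, with the number of genes measured in brackets. The red cell membrane, interferon response and mitosis lists had the highest 3 medians against WT on the amsacrine arrays, at 4.77, 3.61 and 3.22, and the p53 targets lay at -1.23 against WT and -0.33 against p53-null.

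Most measured red cell membrane genes were detected on the Δ122p53 amsacrine array and on neither other amsacrine array. Of 17 measured genes of the red cell membrane and blood groups, 14 rose and 0 fell against WT, and 14 rose and 0 fell against p53-null, with medians of 4.77 and 4.89 (log2), or 3.44 and 3.54 with undetected genes held at their bounds. Through the Δ122p53 array alone, 13 of the 17 entered. Those 13 had to differ, so calls among them describe the signals and are no added support. All 17 were detected there, against 4 on each of the WT and p53-null arrays. Their summed signal was 36900 on the Δ122p53 amsacrine array, 1774 on WT and 1160 on p53-null. The control arrays showed the same order, with 42400 for Δ122p53, 4777 for WT, and 1701 and 1904 for p53-null. In whole-spleen cells, more red cell precursors and more RNA per cell cannot be told apart, which holds for every cell type below.

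Slc4a1, the band 3 anion exchanger of the red cell membrane, had a signal (log2) of 9.53 on the WT, 7.32 on the p53-null and 14.32 on the Δ122p53 amsacrine array. The control arrays had 11.33 on the WT control, 9.38 and 9.26 on the p53-null controls and 14.69 on the Δ122p53 control. Both Δ122p53 arrays lay above all other arrays, and the treated difference was 4.79 ± 0.40 (SE) against WT (adjusted p = 0.00478) and 7.0 ± 0.40 against p53-null (adjusted p = 0.00434). Kel, the Kell blood group protein, read 4.71 on the WT, 4.55 on the p53-null and 10.64 on the Δ122p53 amsacrine array. It was not detected on the WT and p53-null amsacrine arrays, and its rise was at least 24.3-fold and at least 26.0-fold. Aqp1, a water channel of the red cell membrane, read 5.95 on the WT, 5.23 on the p53-null and 12.16 on the Δ122p53 amsacrine array, a rise of at least 69.4-fold against WT and at least 74.3-fold against p53-null. Tspan33, a tetraspanin of erythroid precursors, rose at least 23.7-fold and at least 25.4-fold. An "at least" fold sets the bright array against the higher of the dim array's lowest detected signal and the probe's own value. A gene with such a rise against both genotypes, here and below, entered through the Δ122p53 array alone. It had to differ, so its bounds describe the signals and are no added support.

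Some heme and iron genes rose as well. Of 16 heme and iron genes, 9 rose and 0 fell against WT, and 6 rose and 0 fell against p53-null (medians 2.02 and 1.90), with 2 that entered through the Δ122p53 array alone. Urod, a heme synthesis enzyme, read 10.54 on the WT, 10.64 on the p53-null and 13.44 on the Δ122p53 amsacrine array, which is 2.90 ± 0.39 above WT (adjusted p = 0.0124) and 2.80 ± 0.39 above p53-null (adjusted p = 0.0165). Fech, which puts iron into heme, read 4.80 on the WT, 4.70 on the p53-null and 8.74 on the Δ122p53 amsacrine array, a rise of at least 6.47-fold and at least 6.93-fold. Slc25a37, the mitochondrial iron importer mitoferrin-1, was 2.87 ± 0.46 above WT and 3.39 ± 0.46 above p53-null. Alas2, the erythroid first enzyme of heme synthesis, did not pass: its signal was 11.98 on the WT, 9.15 on the p53-null and 14.09 on the Δ122p53 amsacrine array, with adjusted p = 0.308 and 0.0809, and an SE of 1.14, with the p53-null controls at 10.24 and 7.54.

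Among 11 erythroid transcription factors, 7 rose and 0 fell against WT, and 7 rose and 0 fell against p53-null, and 5 entered through the Δ122p53 array alone. Their medians were 2.39 and 2.56, or 1.27 and 1.37 with bounds. Tal1, a founding factor of the red cell line, read 5.60 on the WT, 5.71 on the p53-null and 11.67 on the Δ122p53 amsacrine array. That is a rise of at least 49.2-fold and at least 52.8-fold. On controls Tal1 read 8.45 on the WT control, 6.80 and 7.46 on the p53-null controls and 10.93 on the Δ122p53 control. The Δ122p53 control again lay highest, and the p53-null and WT amsacrine arrays lay below their controls. Klf1, which turns on adult beta globin, rose at least 17.2-fold against WT and at least 18.4-fold against p53-null. Nfe2 was 4.22 ± 0.55 above WT and at least 24.3-fold above p53-null, whose array did not detect it, and E2f2, a cell cycle factor used in late erythroblasts, 3.43 ± 0.39 and 3.36 ± 0.39 higher. Gata1, the master factor of the line, read 4.75 on the WT, 4.72 on the p53-null and 6.42 on the Δ122p53 amsacrine array and did not pass (adjusted p = 0.0585 and 0.0829).

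GATA factors bind AGATAA, which stood in 9 of 54 start windows of the 4 erythroid lists (16.7%) against 11.2% of all 32851 windows of the same length. Windows ran from 250 bases before to 50 after a RefSeq start (GRCm38.p6), on both strands, and 39 of the 54 genes had one. Here and below, every measured list gene with a window was counted, whatever its difference. A motif share therefore describes the list as chosen and is no support for its rises or falls. The Tal1 stretch below was picked among genes of the 4 lists whose windows hold a match, by the size of the differences. It is the 250 bases before a Tal1 start at chr4:115056176-115056425 (plus strand), and the capitals mark the AGATAA match, which lies on the opposite strand.
Tal1: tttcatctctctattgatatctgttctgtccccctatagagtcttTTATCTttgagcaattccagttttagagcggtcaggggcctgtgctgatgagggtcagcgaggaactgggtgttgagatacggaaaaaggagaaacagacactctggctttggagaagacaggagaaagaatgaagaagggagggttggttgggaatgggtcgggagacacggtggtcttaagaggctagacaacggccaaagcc

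Some globin and red cell enzyme genes rose and others did not pass. Of 10 measured, 2 of them through the Δ122p53 array alone, 6 rose and 0 fell against WT, and 7 rose and 0 fell against p53-null. Car2, a carbonic anhydrase of red cells, read 6.86 on the WT, 6.62 on the p53-null and 11.75 on the Δ122p53 amsacrine array, or 4.89 ± 0.40 above WT and 5.13 ± 0.40 above p53-null (adjusted p = 0.00478 and 0.00434). Prdx2, a peroxidase abundant in red cells, rose at least 11.9-fold and at least 12.8-fold, and Car1 at least 13.7-fold and at least 14.7-fold. Hbb-b2, an adult beta globin, was 2.32 ± 0.42 higher than WT and at least 6.23-fold higher than p53-null, whose array did not detect it. Hba-a1, an alpha globin, was bright on all 3 arrays at 14.98 on the WT, 14.23 on the p53-null and 14.91 on the Δ122p53 amsacrine array, close to the highest normalized signal of 15.09, and did not pass (adjusted p = 0.966 and 0.763). Ube2l6, 4.88 ± 0.51 above WT and at least 41.8-fold above p53-null, is both an erythroid gene and an interferon-induced enzyme for Isg15 conjugation.

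**Figure D2:**
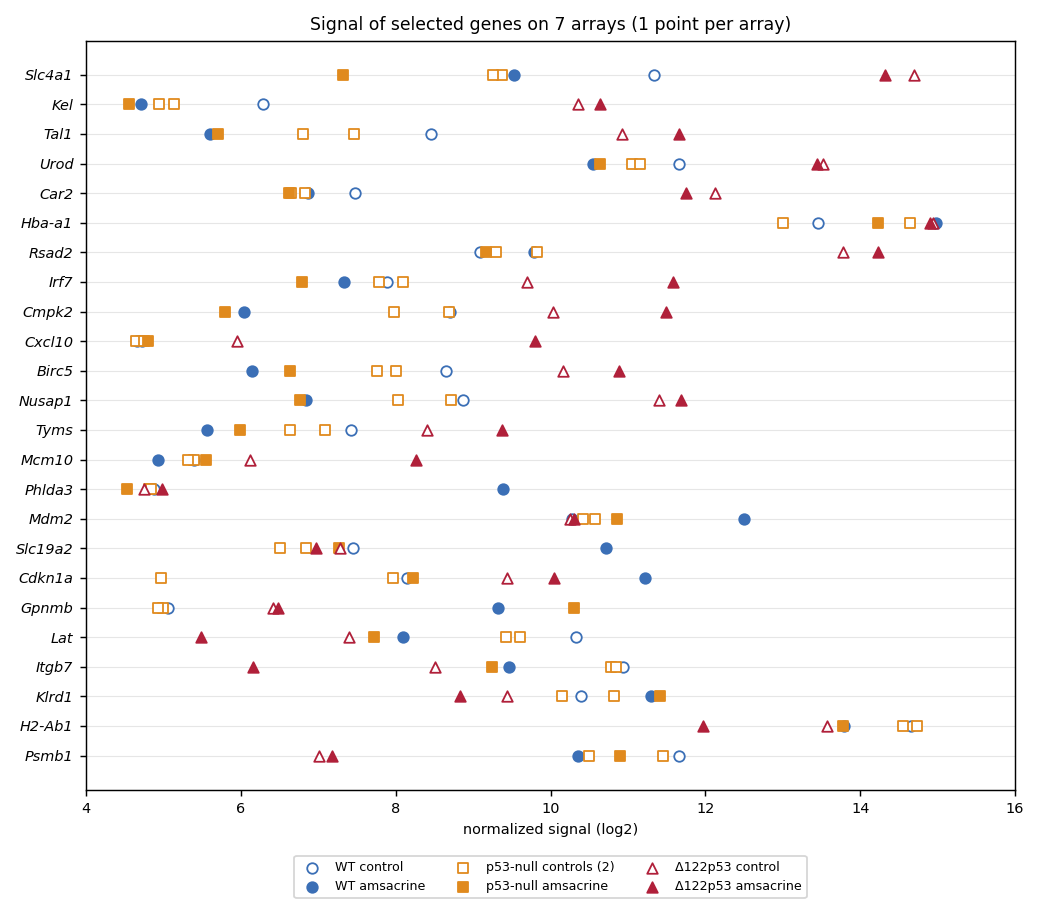
Normalized signal (log2, horizontal axis) of 24 genes on 7 arrays, with 1 point per array: blue for WT, orange for p53-null, red for Δ122p53, filled for amsacrine and hollow for control. For Slc4a1, Kel and Rsad2 both Δ122p53 arrays lay above the other arrays, whereas Phlda3 and Slc19a2 were highest on the WT amsacrine array.

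Most interferon-stimulated genes rose on the treated Δ122p53 array. All 30 measured genes were higher than in both other genotypes: 25 rose and 0 fell against WT, and 23 rose and 0 fell against p53-null, with medians of 3.61 and 3.33 (log2), or 3.32 and 3.08 with bounds. The Δ122p53 array detected all 30, the WT array 20 and the p53-null array 19, and 9 entered through Δ122p53 alone. Rsad2, the antiviral enzyme viperin, was detected on every amsacrine array and read 9.78 on the WT, 9.16 on the p53-null and 14.23 on the Δ122p53 amsacrine array. Its controls read 9.10 on the WT control, 9.82 and 9.30 on the p53-null controls and 13.78 on the Δ122p53 control. Both Δ122p53 arrays stood above the rest, and the treated difference was 4.45 ± 0.44 against WT (adjusted p = 0.00539) and 5.07 ± 0.44 against p53-null (adjusted p = 0.00449). Irf7, which amplifies interferon production, read 7.33 on the WT, 6.79 on the p53-null and 11.59 on the Δ122p53 amsacrine array. It was 4.25 ± 0.41 above WT and 4.80 ± 0.41 above p53-null (adjusted p = 0.00539 and 0.00443), while on the controls the differences were 1.81 and 1.75.

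Oas2, which makes the 2-5A signal that activates RNase L, rose at least 19.9-fold against WT and at least 21.3-fold against p53-null, and Oas1g was 4.70 ± 0.45 and 4.48 ± 0.45 higher. Oasl1 was 4.89 ± 0.51 and 4.45 ± 0.51 higher, and the mitochondrial nucleotide kinase Cmpk2, next to Rsad2 in the genome, read 6.04 on the WT, 5.80 on the p53-null and 11.50 on the Δ122p53 amsacrine array and rose in both (adjusted p = 0.00502 and 0.00443). Stat2, a subunit of the interferon-activated factor, read 5.71 on the WT, 6.72 on the p53-null and 10.23 on the Δ122p53 amsacrine array and rose in both comparisons (adjusted p = 0.00823 and 0.0204). Ifitm3, which blocks virus entry, was 3.58 ± 0.41 and 3.41 ± 0.41 higher on the amsacrine arrays and 0.47 and 0.49 on the controls. Bst2, tetherin, was 2.20 and 3.49 higher but missed the threshold (adjusted p = 0.122 and 0.0584).

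The core of the interferon-stimulated response element, GAAA, any 2 bases and GAAA, stood in 11 of 27 start windows of the interferon list (40.7%), against 3.44% of all windows. That share belongs to the list as chosen and is no support for the rises. The stretch below is the 250 bases before a Rsad2 start, at chr12:26456453-26456702 on the minus strand of GRCm38.p6. Rsad2 was picked among list genes whose windows hold a match, by the size of the differences. The capitals mark the core, which reads from the opposite strand.
Rsad2: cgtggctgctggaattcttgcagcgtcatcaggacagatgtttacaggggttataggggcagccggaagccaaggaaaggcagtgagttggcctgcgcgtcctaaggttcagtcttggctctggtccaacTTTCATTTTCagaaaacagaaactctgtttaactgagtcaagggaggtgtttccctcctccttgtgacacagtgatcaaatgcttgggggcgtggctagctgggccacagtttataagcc

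Few genes of the wider inflammatory list rose. Of 17 interferon-gamma and inflammatory genes, 3 rose and 0 fell against WT, and 3 rose and 0 fell against p53-null, and the medians were 0.39 and -0.05. Through Δ122p53 alone 2 entered, and 2 were not detected there. The genes that rose in both were Cxcl10, Cxcl9 and Il15. Cxcl10, a chemokine for T cells, read 4.72 on the WT, 4.80 on the p53-null and 9.80 on the Δ122p53 amsacrine array and rose at least 13.5-fold and at least 14.5-fold. Its Δ122p53 control read 5.95, so the treated Δ122p53 array stood apart from every other array. Cxcl9 rose at least 11.1-fold and at least 11.9-fold. On the controls Cxcl9 went the other way, at -0.56 from WT and -0.38 from p53-null (log2). Il15, a survival cytokine for NK cells, rose at least 5.78-fold against WT, whose array did not detect it, and was 2.61 (log2) above p53-null. Among 12 genes of class I antigen presentation, 1 rose and 0 fell against WT, and 0 rose and 0 fell against p53-null (medians 1.26 and 1.16). On the control arrays 9 and 6 interferon genes rose, with medians of 2.04 and 1.39. Over all genes 2.02% rose and 1.72% fell against WT on the controls, and 2.84% rose and 1.87% fell against p53-null.

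Most measured genes of cell division rose in treated Δ122p53 cells. Of 27 mitosis genes, 21 rose and 0 fell against WT, and 20 rose and 0 fell against p53-null, with medians of 3.22 and 2.82, or 2.71 and 2.59 with bounds, and 11 entered through the Δ122p53 array alone. Birc5, survivin of the chromosomal passenger complex, read 6.14 on the WT, 6.64 on the p53-null and 10.89 on the Δ122p53 amsacrine array, with controls at 8.65 on the WT control, 7.76 and 8.01 on the p53-null controls and 10.16 on the Δ122p53 control. The treated Δ122p53 array was highest and the treated WT and p53-null arrays were lowest, with differences of 4.75 ± 0.41 (adjusted p = 0.00488) and 4.25 ± 0.41 (adjusted p = 0.00516). Nusap1, a spindle protein, read 6.84 on the WT, 6.76 on the p53-null and 11.68 on the Δ122p53 amsacrine array, or 4.84 ± 0.48 and 4.92 ± 0.48 higher. Cdca3, which triggers entry into mitosis, was 5.02 ± 0.42 and 5.12 ± 0.42 higher, and Cdk1, the kinase that drives mitosis, rose at least 15-fold and at least 16.1-fold. Top2a, the topoisomerase II that amsacrine poisons, read 6.11 on the WT, 7.06 on the p53-null and 9.65 on the Δ122p53 amsacrine array, with differences of 3.54 ± 0.40 and 2.59 ± 0.40 (adjusted p = 0.00739 and 0.0219). Across the 3 amsacrine arrays the red cell markers were also highest on Δ122p53, at 36900 summed signal against 1774 and 1160, and all 17 were detected there. The 2 Δ122p53 arrays did not share this order. The red cell sum was 42400 on the control and 36900 with amsacrine, and the mitosis sum 18910 and 28210. The part of red cell precursors in the result was not tested.

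The cell cycle homology region, TTTGAA, through which many mitotic genes are repressed outside division, stood in 16 of 21 start windows of the mitosis list (76.2%), against 17.9% of all windows. Again the share describes the list and is no support for the rises. The 250 bases before a Cdk1 start, at chr10:69352913-69353162 on the minus strand of GRCm38.p6, hold 2 matches in capitals. Cdk1 was picked among list genes whose windows hold a match, by the size of the differences.
Cdk1: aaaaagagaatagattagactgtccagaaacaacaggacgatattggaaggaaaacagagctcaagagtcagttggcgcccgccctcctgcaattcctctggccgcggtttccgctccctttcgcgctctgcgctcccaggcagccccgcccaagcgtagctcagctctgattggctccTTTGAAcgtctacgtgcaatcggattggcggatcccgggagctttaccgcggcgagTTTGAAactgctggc

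Some DNA replication genes rose too. Of 34, 12 rose and 0 fell against WT, and 10 rose and 0 fell against p53-null, with medians of 1.17 and 1.10 and 7 that entered through Δ122p53 alone. Tyms, which makes dTMP, read 5.56 on the WT, 5.99 on the p53-null and 9.37 on the Δ122p53 amsacrine array, which is at least 10.02-fold above WT, whose array did not detect it, and 3.38 ± 0.43 (log2) above p53-null (adjusted p = 0.00739 and 0.0117). Tk1, thymidine kinase, rose at least 9.76-fold against WT and was 3.26 ± 0.40 above p53-null, the ribonucleotide reductase subunit Rrm2 rose at least 5.90-fold and at least 6.33-fold, and Mcm10, an origin-firing factor, at least 4.65-fold and at least 4.98-fold. On the controls 0 of these genes were called against WT and 2 against p53-null, and the medians were 0.30 and 0.26.

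Several p53 target genes fell against WT. Of 30 measured, 2 rose and 8 fell against WT, and 2 rose and 0 fell against p53-null. Only 0.368% of all genes fell against p53-null, so 0 of 30 says little. By size, 6 were at least 2-fold higher and 17 lower than WT, and 6 higher and 5 lower than p53-null. Over all genes 11.6% and 13.7% were at least 2-fold higher and lower than WT, and 9.02% and 9.15% than p53-null. Through Δ122p53 alone 1 entered, and 4 were not detected there. The median was -1.23 against WT and -0.33 against p53-null, and on the control arrays -0.08 and -0.08. The genes that fell against WT were Phlda3, Slc19a2, Ccng1, Ephx1, Zmat3, Ei24, Mdm2 and Ercc5. Whether the difference from WT was itself unlike that from p53-null is the p53-null against WT contrast, in which the list's median was -0.78 and 0 probes of any kind were called (594 at an unadjusted p under 0.05). Phlda3, which restrains Akt, read 9.38 on the WT, 4.53 on the p53-null and 4.99 on the Δ122p53 amsacrine array. Its controls read 4.88 on the WT control, 4.81 and 4.84 on the p53-null controls and 4.75 on the Δ122p53 control. Only the WT amsacrine array was high, and the fall was at least 12.1-fold against WT, while against p53-null neither array detected it. Phlda3 entered through the WT array alone, so it had to differ from WT. Mdm2, the p53 ubiquitin ligase, read 12.50 on the WT, 10.86 on the p53-null and 10.31 on the Δ122p53 amsacrine array, with controls at 10.28 on the WT control, 10.58 and 10.43 on the p53-null controls and 10.26 on the Δ122p53 control. The treated Δ122p53 array lay at its control's level, -2.19 ± 0.40 from WT (adjusted p = 0.0295) and -0.56 ± 0.40 from p53-null (adjusted p = 0.592).

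Slc19a2, a thiamine transporter, read 10.71 on the WT, 7.27 on the p53-null and 6.97 on the Δ122p53 amsacrine array, with differences of -3.74 ± 0.41 (adjusted p = 0.00695) and -0.30 ± 0.41 (adjusted p = 0.822). Ccng1, cyclin G1, differed by -3.30 ± 0.40 from WT and -0.45 ± 0.40 from p53-null. Ephx1, an epoxide hydrolase, differed by -2.89 ± 0.39 and -1.57 ± 0.39, and here the Δ122p53 value of 6.69 lay below the p53-null 8.26 without passing (adjusted p = 0.102). Ei24 and Ercc5 differed from WT by -2.38 and -1.94, and from p53-null by -0.39 and -0.92 (adjusted p = 0.738 and 0.32). Zmat3, not detected on the Δ122p53 array, fell at least 3.34-fold against WT and did not pass against p53-null (adjusted p = 0.237). Cdkn1a, the cell cycle inhibitor p21, read 11.21 on the WT, 8.23 on the p53-null and 10.04 on the Δ122p53 amsacrine array. Its Δ122p53 value lay between the others and passed neither test (adjusted p = 0.613 and 0.575), with p53-null controls as far apart as 4.97 and 7.96. The members that rose were Gadd45a, a stress gene also induced without p53, and Ckap2, a spindle protein of dividing cells. Gadd45a read 8.94 on the WT, 9.10 on the p53-null and 11.99 on the Δ122p53 amsacrine array, or 3.05 ± 0.51 and 2.89 ± 0.51 higher, and its control differences were 2.92 and 2.88. Ckap2 rose at least 2.67-fold and at least 2.86-fold. The p53 half-site stood in 9 of 32 start windows of the list (28.1%) and in 8.36% of all windows, which describes the list and not the array differences.

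**Figure D3:**
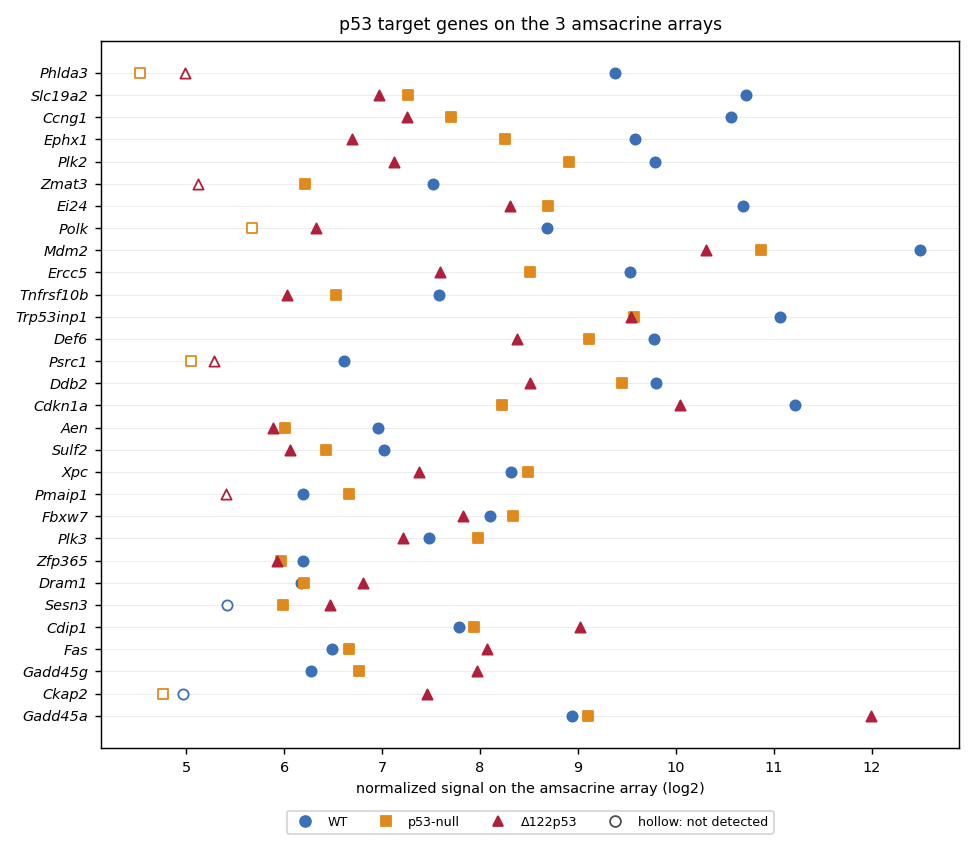
Normalized signal (log2, horizontal axis) of the 30 measured p53 target genes on the WT (blue circles), p53-null (orange squares) and Δ122p53 (red triangles) amsacrine arrays, ordered by Δ122p53 minus WT, with hollow marks for genes not detected on that array. Phlda3, at 9.38 on WT and 4.99 on Δ122p53, heads the genes for which the WT array stood to the right of both others, and Gadd45a, at 11.99 on Δ122p53, is at the other end.

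Some T cell, NK cell and macrophage genes fell in treated Δ122p53 splenocytes. Of 21 T cell genes, 0 rose and 4 fell against WT, and 0 rose and 2 fell against p53-null (medians -1.21 and -1.33). Lat, the adaptor that relays the T cell receptor signal, read 8.10 on the WT, 7.72 on the p53-null and 5.49 on the Δ122p53 amsacrine array and fell at least 4.97-fold and at least 3.82-fold (adjusted p = 0.0175 and 0.0366). Lef1, a factor of naive T cells, fell at least 2.51-fold and at least 4.12-fold. Bcl11b and Cd6 fell against WT, by 2.05 and 2.03 on the log2 scale, with -1.46 and -1.50 against p53-null (adjusted p = 0.136 and 0.123). On the Δ122p53 array 3 of the T cell genes and 3 of the NK genes were not detected. Of 13 NK and cytotoxic genes, 0 rose and 2 fell against WT, and 0 rose and 1 fell against p53-null (medians -1.595 and -0.691). The controls showed falls as well. There 3 and 5 T cell genes fell against WT and p53-null (medians -1.019 and -1.165), and 2 and 2 NK genes (medians -1.433 and -1.253). Klrd1 (CD94) read 11.29 on the WT, 11.41 on the p53-null and 8.83 on the Δ122p53 amsacrine array, or -2.47 ± 0.48 and -2.58 ± 0.48, and Nkg7, a granule protein, differed by -2.56 ± 0.40 and -1.41 ± 0.40. None of 19 B cell genes passed in either comparison (medians -0.44 and -0.86), where 2.15% and 0.368% of all genes fell. By size, 5 were at least 2-fold lower and 1 higher than WT, and 8 lower and 1 higher than p53-null. Over all genes 13.7% were at least 2-fold lower than WT and 9.15% than p53-null.

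All 9 class II antigen presentation genes were lower, and 0 rose and 1 fell against WT, and 0 rose and 0 fell against p53-null (medians -1.37 and -1.62). H2-Ab1, a class II chain, read 13.79 on the WT, 13.78 on the p53-null and 11.97 on the Δ122p53 amsacrine array, a difference of -1.82 ± 0.40 (adjusted p = 0.0477) and -1.81 ± 0.40 (adjusted p = 0.0723). H2-Eb1 was -1.61 and -1.92 from the others and did not pass. Of 15 macrophage and monocyte genes, 0 rose and 4 fell against WT, and 0 rose and 0 fell against p53-null (medians -1.23 and -1.32), 4 of the genes were not detected on the Δ122p53 array, and on the controls 8 and 9 genes fell, with medians of -2.93 and -2.35. C1qa, a complement chain of macrophages, read 7.35 on the WT, 6.85 on the p53-null and 5.28 on the Δ122p53 amsacrine array and 9.28 on the WT control, 8.29 and 7.89 on the p53-null controls and 4.93 on the Δ122p53 control. The treated WT and p53-null arrays lay below their own controls, and the Δ122p53 arrays were lowest. Vcam1, an adhesion molecule of red pulp macrophages and stroma, was -1.97 ± 0.40 from WT (adjusted p = 0.0383) and -1.46 ± 0.40 from p53-null (adjusted p = 0.125).

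Further genes fell against both genotypes. Itgb7, the integrin chain that takes lymphocytes to the gut, read 9.47 on the WT, 9.25 on the p53-null and 6.16 on the Δ122p53 amsacrine array, or -3.31 ± 0.39 and -3.09 ± 0.39 (adjusted p = 0.00838 and 0.0117). Psmb1, a core proteasome subunit, read 10.36 on the WT, 10.89 on the p53-null and 7.18 on the Δ122p53 amsacrine array, a difference of -3.18 ± 0.54 and -3.72 ± 0.54 (adjusted p = 0.0242 and 0.0191). Psmb1 was the only call in its list: of 22 proteasome genes, 0 rose and 1 fell against WT, and 0 rose and 1 fell against p53-null, and the medians were 0.18 and 0.07. On the controls Psmb1 was -4.65 and -3.96 from WT and p53-null. Gpnmb, a lysosomal glycoprotein of macrophages, read 9.32 on the WT, 10.30 on the p53-null and 6.48 on the Δ122p53 amsacrine array, with controls at 5.06 on the WT control, 5.00 and 4.93 on the p53-null controls and 6.42 on the Δ122p53 control. The treated WT and p53-null arrays lay above every control and the treated Δ122p53 array near its own control, with differences of -2.84 ± 0.39 and -3.82 ± 0.39 (adjusted p = 0.0132 and 0.00578). The amsacrine difference minus the control difference for Gpnmb was -4.21 (adjusted p = 0.302) against WT and -5.28 (adjusted p = 0.304) against p53-null. Tubb2b, a tubulin, read 10.70 on the WT, 10.68 on the p53-null and 7.78 on the Δ122p53 amsacrine array, with control differences of -0.68 and -0.05 and amsacrine differences of -2.92 ± 0.42 and -2.90 ± 0.42.

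Sgms1, a sphingomyelin synthase, was -2.86 ± 0.40 from WT and -2.33 ± 0.40 from p53-null. Tnfrsf26, a decoy receptor of the TNF family, fell at least 12.5-fold and at least 7.40-fold, and Paxx, a factor of DNA end joining, at least 6.88-fold and at least 4.70-fold. The rises outside the lists included Slc38a5, an amino acid transporter, by at least 38.1-fold and at least 40.8-fold, and Mgst3, a glutathione transferase, by at least 32.2-fold and at least 34.6-fold. Cdr2 was 4.07 ± 0.40 and 4.95 ± 0.40 higher, close to its control differences of 4.81 and 5.03. In the integrated stress response list of 30, 3 of them through Δ122p53 alone, 3 rose and 0 fell against WT, and 1 rose and 0 fell against p53-null. The medians were 0.627 and 0.545. On the controls more of these genes rose, 6 against WT and 9 against p53-null, with medians of 0.808 and 1.054. The control differences of Asns were 3.97 and 4.76. Asns, asparagine synthetase, was 3.19 ± 0.39 and 2.98 ± 0.39 higher, and Trib3 and Psat1 rose against WT, by 1.89 and 1.81, with 1.62 and 0.78 against p53-null (adjusted p = 0.0948 and 0.413). No gene was called in either comparison among 18 ribosomal protein, 28 ribosome biogenesis, 9 heat shock and 19 NF-kB genes. Over all genes 4.20% rose and 2.15% fell against WT, and 3.33% and 0.368% against p53-null, so 0 per list says little. In that order of lists, 0 and 1, 3 and 2, 0 and 1, and 2 and 2 were at least 2-fold higher and lower than WT. Against p53-null these were 0 and 2, 0 and 0, 1 and 0, and 1 and 2. All genes had 11.6% and 13.7%, and 9.02% and 9.15%.

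Most probes called on the amsacrine arrays differed the same way on the control arrays. Of the 459 probes that rose against WT, 429 were also higher on the Δ122p53 control than on the WT control, 322 at least 2-fold, and 148 rose there too. Of the 189 that fell, 160 were lower, 93 at least 2-fold, and 40 fell. Against p53-null, 294 of 298 risen probes were higher on the controls and 159 rose there, and 35 of 41 fallen probes were lower and 12 fell. Of all 9253 probes, 2.37% rose and 1.46% fell against WT on the controls, 16.1% and 12.6% were at least 2-fold higher and lower, and 2.91% rose and 1.66% fell against p53-null. By sign alone, counted over the 6787 genes and not over probes, 48.1% were higher than WT on the controls and 50.8% higher than p53-null. Probes without a gene symbol made up 105 of the 459 and 34 of the 298 that rose. Across the 6787 genes, Pearson correlations between the amsacrine and the control difference, which share no array, were 0.592 (Spearman 0.531) for WT and 0.613 (Spearman 0.452) for p53-null. Genes are not independent replicates, so these only describe the arrays. When the difference itself was tested, amsacrine minus control, 0 probes (0%) passed in either comparison (limma; 1007 and 786 at an unadjusted p under 0.05, smallest adjusted p 0.301 and 0.304). Larger medians on the amsacrine arrays, such as 3.61 against 2.04 for the interferon genes and 3.22 against 1.33 for mitosis, are therefore values and not tested differences.

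**Figure D4:**
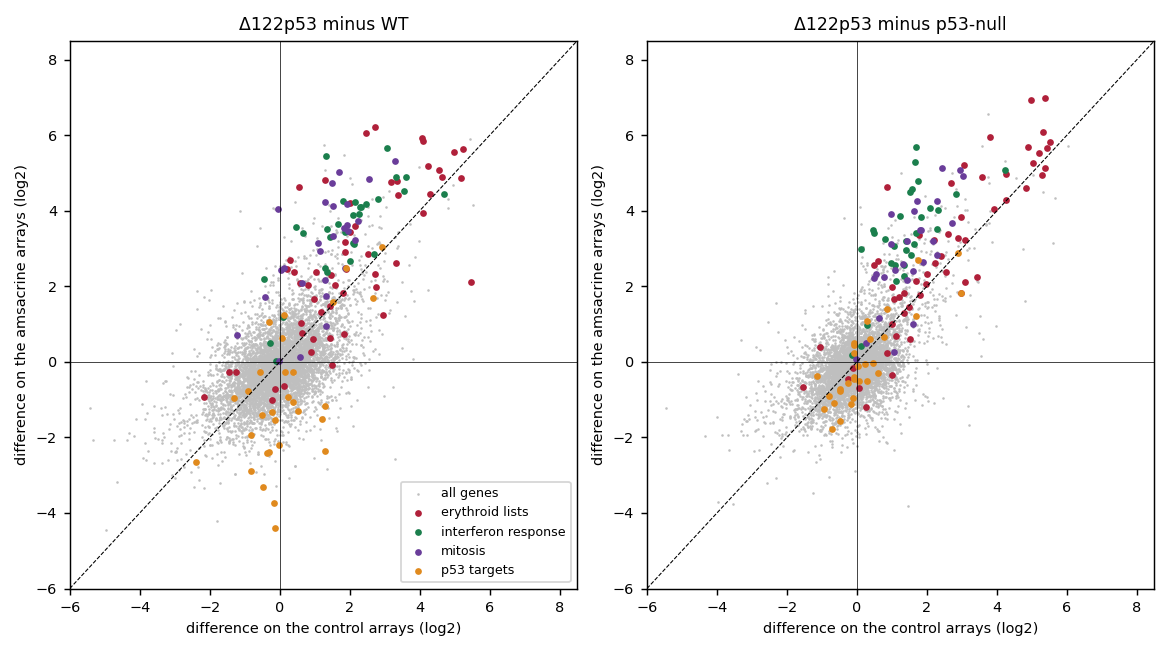
Difference on the amsacrine arrays (vertical axis, log2) against the difference on the control arrays (horizontal axis, log2), Δ122p53 minus WT on the left and minus p53-null on the right, with 1 point per gene, lists in colour, and a dashed line where both are equal. Red cell and interferon genes lie to the upper right in both panels. Several p53 targets lie near 0 on the control axis and as low as -4.39 on the amsacrine axis in the WT panel, the fitted value of Phlda3, which of the 3 amsacrine arrays WT alone detected.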

How the data were processed

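Whole-spleen cell RNA was hybridised to 8 single-colour Illumina mouse arrays. The authors deposited a table of probe intensities with a detection p-value for each, non-normalized per the file headers, and a table of values made with lumi per the submitters' processing notes, taken here as log2 and used only as an alternative. Sorted columns of the deposited log2 values differed by at most 0.000516, so they were quantile normalized. The sources used here do not give whether a variance-stabilising step came first.

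The deposited intensities were background-corrected (limma 3.58.1 in R 4.3.3) by normexp with moments from the detection p-values (offset 16), quantile scaled over all 8 arrays and put on the log2 scale. Median intensity per array was 69.75 to 81.5, and 7710 to 8633 probes had a detection p under 0.01. A mean was fitted for each of 7 groups. The p53-null control pair gave the 1 residual degree of freedom, lone arrays were assumed to vary like it, and the prior (5.42 degrees of freedom, SD 0.302) rests on that pair. Tests were 2-sided, adjusted by Benjamini-Hochberg over 9253 probes in each contrast (7 contrasts were fitted), and called at an adjusted p under 0.05. Precision is limited by how few arrays there are.

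Of all probes 20984 had 1 gene symbol, 1 had several and 3628 had none, and symbols were updated through Entrez identifiers (20968 matched). Of the 9253, 1211 were not named. A gene was shown by its brightest member probe on average. Of 1019 genes with several member probes, all probes had the same sign for 632 against WT and 738 against p53-null. The members and the 36 gene lists were chosen with earlier results of these data known. Lists were counted, not tested. Named genes were the 10 largest differences each way on arrays that both detected the gene, called ones first, the 5 largest bounds each way, up to 4 per list, and Cdkn1a and Mdm2. Bcl11b, Ctrb1, Ei24, Ercc5, Gata1, Hba-a1, Hbb-b2, Ifitm3, Psat1, Stat2, Vcam1 and Zmat3 were named after their values were seen. Start windows came from RefSeq (GRCm38.p6), matched by symbol. Some genes that the rule names are not reported here. The fit was tested on simulated data. The alternatives are in the closing section.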

Additional observations from a re-analysis of the deposited data

How the results depend on the processing

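The named rises and falls kept their direction under each alternative tried, apart from the additive-model values given here, but the calls did not all hold. Of 160 gene differences, each named gene's from WT and from p53-null, 128 kept their direction but lost their call in the authors' value table and with no detection filter, against 46 with cyclic loess and 31 with median centring. The 26 list medians of at least 1 in size kept their sign in 388 of 389 alternative values. The authors' table and the unfiltered probes gave 0 calls for every comparison, amsacrine and control, in each direction, and the authors' table had 935 and 638 probes at least 2-fold from WT and p53-null. Calls against WT and p53-null numbered 319 and 196 at offset 50 (266 higher and 53 lower, 189 and 7, with 1106 at least 2-fold from p53-null), 193 and 141 with cyclic loess (182 and 11, 137 and 4) and 290 and 230 with median centring (271 and 19, 225 and 5). Without background correction 418 were called against WT (91 lower) and 24 fell against p53-null, with 1633 and 1044 at least 2-fold apart. Probes detected on all 3 arrays gave 190 (133 higher, 57 lower) and 95 (86 and 9), with 1501 and 941 at least 2-fold apart. Probes detected on any of the 8 gave 113 lower against WT and 22 against p53-null. An intensity trend gave 301 lower against WT, and 529 calls with 109 lower against p53-null, and gene means gave 68 lower against p53-null. On the controls, calls against WT and p53-null were 108 and 248 at offset 50, 0 and 121 with cyclic loess, 82 and 143 with median centring, and 547 against WT with the trend, and 235 against p53-null for probes detected on all 3 arrays. An additive model of genotype and amsacrine, which averages treated and control arrays, called 1551 (869 higher, 682 lower) and 831 (489 and 342). Without either p53-null control it called 1083 to 1218 (644 to 706 higher, 439 to 512 lower) and 367 to 423 (264 to 302 higher, 103 to 121 lower). There Cdkn1a against WT turned to 0.061 (0.062 and 0.065 without a control), Hba-a1 against WT to 0.706 (0.704 and 0.726), Slc19a2 against p53-null to 0.065 (0.071 and 0.236), Scd2 against p53-null to -0.788 (-0.479 and -0.541) and Phlda3 against p53-null to -0.080. None of these 5 differences was called in the group-mean model or here. Without a p53-null control the group-mean model has no residual degrees of freedom, and counts at least 2-fold apart were 2479 to 2500 and 1693 to 1704. Median centring moved the median of all probes from -0.10 to 0.08 against WT and from -0.09 to 0.12 against p53-null. The cause of these changes was not tested. No paired analysis was possible because the groups compared share fewer than 2 replicate numbers.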

Other observations

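Scd2, a desaturase that makes monounsaturated fatty acids, was named by the rule and read 12.20 on the WT, 8.78 on the p53-null and 9.23 on the Δ122p53 amsacrine array. The WT array was high and the others were close together, with -2.98 against WT (limma, adjusted p = 0.0115) and 0.45 against p53-null (adjusted p = 0.689). Abcg1, a cholesterol exporter, read 10.59 on the WT, 10.45 on the p53-null and 8.76 on the Δ122p53 amsacrine array and fell against WT (-1.82, adjusted p = 0.0464), with -1.68 against p53-null (adjusted p = 0.0842).

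Among 49 listed genes of DNA damage signalling and repair, 28 were measured, 3 of them through the Δ122p53 array alone, and 2 rose and 0 fell in each comparison. Clspn, the claspin adaptor of the Chk1 pathway, rose in both comparisons and read 5.15 on the WT, 6.00 on the p53-null and 8.82 on the Δ122p53 amsacrine array. Of 13 measured antioxidant genes, 3 rose and 0 fell against WT, and 2 rose and 0 fell against p53-null, with medians of -0.31 and -0.10. Gstm5, a glutathione transferase and 1 of the genes that rose, was undetected on the WT and p53-null arrays, at 4.87 on the WT, 5.02 on the p53-null and 8.17 on the Δ122p53 amsacrine array.

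Digestive enzyme genes of the exocrine pancreas, a list put together after the values were seen, were detected on some arrays of spleen cells. Of 22 such genes on the array, 13 were detected on the WT control, 8 on the WT amsacrine array, 3 and 8 on the p53-null controls, 4 on the p53-null amsacrine array, 0 on the Δ122p53 control and 2 on the Δ122p53 amsacrine array. Amy2a5, a pancreatic amylase, read 9.58 on the WT, 8.90 on the p53-null and 5.13 on the Δ122p53 amsacrine array, and 10.30 on the WT control, 9.83 and 7.90 on the p53-null controls and 5.33 on the Δ122p53 control. It was undetected on both Δ122p53 arrays. Ctrb1, chymotrypsinogen, read 7.38 on the WT, 6.18 on the p53-null and 4.59 on the Δ122p53 amsacrine array. The Amy2a5 difference against WT passed the test (adjusted p = 0.0344), and its part in other results was not tested.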
